A study of Mus musculus with 62 samples.

Results

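The 9 genes described here encode proteins that bring long-chain fatty acids into mitochondria or take part in fatty acid oxidation there. Called the 9 enzymes here, they are Cpt1a, Cpt1b, Cpt2, Acadl, Acadm, Acadvl, Hadha, Hadhb and Etfb. They were chosen by name, with earlier results of these data known. Counts of these genes beside shares of all genes are therefore descriptions and no independent test. The 9 are among the 47643 gene symbols in a table of RNA levels in brown adipose tissue of female mice. The study asked how this tissue changes while a melanoma that causes cachexia, the wasting that accompanies some cancers, develops. Mice of the CAC groups had received cachectic melanoma cells, mice of the NCAC groups non-cachectic melanoma cells, and Con mice a mock injection. Tissue was taken at 2, 4, 6 and 8 weeks, with 5 libraries in each of the 12 groups except CAC at 8 weeks, which had 7, for 62 libraries in all. Every mouse is listed with an age of 2 months at all 4 times. The sample labels name the strain C57BL6/J, whereas the series text names NCI Ath/nude mice, which lack a thymus and so most T cells. The labels do not name the melanoma lines, and their extraction text speaks of LLC tumours, which no group carried. The libraries are called biological replicates without a statement that each came from its own mouse, so p-values measure the spread between these libraries. In bulk tissue, fewer cells of a type and less RNA per cell cannot be told apart.

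A long-chain fatty acid enters the mitochondrion bound to carnitine. Carnitine palmitoyltransferase 1 makes the carnitine ester on the outer membrane, and carnitine palmitoyltransferase 2 turns it back into an acyl-CoA on the inner membrane. Acyl-CoA dehydrogenases of different chain-length preference then take the first oxidation step and hand their electrons to the electron transfer flavoprotein, and the mitochondrial trifunctional protein completes each round for long chains. In brown fat this pathway supplies the fuel that the uncoupling protein Ucp1 turns into heat.

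Levels are given in TPM, the deposited unit, which scales reads for transcript length and for the total of a library, and as mt-free TPM, in which the 37 mitochondrially encoded genes, whose symbols start with mt-, were removed and the remaining genes rescaled to the same total. Both are shown because the mt- genes took a large and unequal part of each library. Their share of TPM averaged 56.2%, 55.9%, 52.3% and 50.8% in CAC libraries at 2, 4, 6 and 8 weeks, against 58.5%, 57.2%, 56.8% and 59.8% in NCAC libraries and 58.2%, 50.7%, 61.1% and 62.8% in Con libraries. Con replicates 3 and 4 at 4 weeks stood apart, with 39.6% and 39.7% against 57.1% to 58.7% in the other Con libraries of that week. Through the scaling alone, a lower mt- share raises the TPM of every other gene by the same factor. Con replicates 3 and 4 at 4 weeks differed beyond such a factor. Their Hadhb over Hadha was 1.20 and 1.26, against 1.44 to 1.54 in the other Con libraries of that week. The number of genes at 1 TPM or more was 10850 to 12350 per library. Sequencing depth is unknown, because TPM keeps no read totals. The brown adipocyte markers fixed for this tissue, among them Ucp1, Cidea and Dio2, were above 0 in all 62 libraries, with Ucp1 at 1639.9 TPM or more. All 17 skeletal muscle markers were above 0 in every library as well, and their summed level ranged over libraries between 341.2 and 39711 mt-free TPM.

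The trifunctional protein is built from the products of Hadha, its α subunit, and Hadhb, its β subunit. In mm10, the build of the deposited data, the GENCODE genes lie head to head on chromosome 5, Hadha at chr5:30118304-30155162 on the minus strand and Hadhb at chr5:30155248-30184593 on the plus strand. Their promoter windows are shown because these genes had the largest mt-free changes of the 9 at 8 weeks, a choice made after their values were seen. Each window covers 300 bases around the RefSeq start in GRCm38.p6, Hadha at chr5:30154931-30155230 on the minus strand and Hadhb at chr5:30155003-30155302 on the plus strand. The starts are 273 bases apart, and the 228 bases at chr5:30155003-30155230, in capitals, belong to both windows and read as reverse complements of each other.
Hadha: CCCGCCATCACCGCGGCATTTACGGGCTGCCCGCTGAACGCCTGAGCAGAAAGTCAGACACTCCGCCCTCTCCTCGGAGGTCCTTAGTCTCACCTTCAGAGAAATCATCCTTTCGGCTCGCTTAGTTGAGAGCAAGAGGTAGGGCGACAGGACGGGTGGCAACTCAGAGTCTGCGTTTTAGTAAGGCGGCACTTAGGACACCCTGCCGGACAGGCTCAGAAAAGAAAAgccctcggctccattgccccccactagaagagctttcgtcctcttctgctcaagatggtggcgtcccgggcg
Hadhb: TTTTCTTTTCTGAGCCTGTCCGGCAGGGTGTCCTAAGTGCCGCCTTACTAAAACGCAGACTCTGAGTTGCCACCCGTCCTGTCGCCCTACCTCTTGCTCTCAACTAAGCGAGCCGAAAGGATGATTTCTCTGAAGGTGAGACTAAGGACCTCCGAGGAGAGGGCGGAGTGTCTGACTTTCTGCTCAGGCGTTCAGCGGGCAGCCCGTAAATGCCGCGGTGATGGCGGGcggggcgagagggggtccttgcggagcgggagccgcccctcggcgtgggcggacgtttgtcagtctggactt

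Acadl encodes the long-chain and Acadvl the very long-chain acyl-CoA dehydrogenase, and their promoters are shown as examples of the motif search. The Acadl window lies at chr1:66863260-66863559 on the minus strand, with its GC boxes (GGGCGG on either strand) in capitals. The Acadvl window lies at chr11:70015379-70015678 on the minus strand, with AGGTCA, the core to which many nuclear receptors bind, in capitals.
Acadl: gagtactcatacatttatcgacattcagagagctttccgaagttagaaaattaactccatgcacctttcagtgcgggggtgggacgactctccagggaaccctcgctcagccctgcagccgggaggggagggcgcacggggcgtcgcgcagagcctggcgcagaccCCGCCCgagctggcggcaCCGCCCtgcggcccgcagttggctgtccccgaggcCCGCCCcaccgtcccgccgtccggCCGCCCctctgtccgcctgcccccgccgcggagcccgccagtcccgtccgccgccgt
Acadvl: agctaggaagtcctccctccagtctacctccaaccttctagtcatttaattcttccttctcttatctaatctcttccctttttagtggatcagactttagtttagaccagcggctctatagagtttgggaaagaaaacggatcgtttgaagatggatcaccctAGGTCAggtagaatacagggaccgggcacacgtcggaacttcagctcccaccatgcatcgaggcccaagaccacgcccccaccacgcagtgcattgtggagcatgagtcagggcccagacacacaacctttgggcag

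RefSeq windows were matched for 8 of the 9 members. On either strand, AGGTCA occurred in 3 of the 8, those of Acadm, Acadvl and Cpt1a, and in 16.3% of all 32851 mouse windows. The direct repeat of AGGTCA with 1 base between its copies, to which PPAR and RXR pairs can bind, occurred in 0 of the 8 and in 0.0396% of all windows. The estrogen-related receptor element TCAAGGTCA, which ends in AGGTCA, also occurred in 0 of the 8 and in 0.423% of all windows. GGGCGG occurred in 6 of the 8, those of Acadl, Cpt2, Hadha, Hadhb, Etfb and Cpt1a, and in 35.7% of all windows. The only box of the Hadha window, at its bases 63 to 68, lies in the bases shared with Hadhb. It is the same site as the Hadhb box at bases 161 to 166, so those windows are not independent. These matches describe letters in 300 bases and say nothing about binding.

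The other members lie on 7 chromosomes beside chromosome 5. Cpt1a is at chr19:3322334-3385733 on the plus strand, Cpt1b at chr15:89416405-89425863 on the minus strand and Cpt2 at chr4:107903981-107923610 on the minus strand. Acadl is at chr1:66830839-66863277, Acadm at chr3:153922357-153944632 and Acadvl at chr11:70010183-70015411, all on the minus strand, and Etfb is at chr7:43444083-43457800 on the plus strand. GENCODE lists a protein-coding gene, Gm44502, over Cpt1b and another, Gm45233, over Etfb, both on the same strand as the member, so the levels of Cpt1b and Etfb could hold reads of those models. Neither is among the deposited gene symbols. Hadha overlaps Garem2 on the opposite strand, which is not among those symbols either. Acadl overlaps the pseudogene Gm15793, which was listed at 0 TPM in all libraries. Acadvl overlaps Dvl2 on the opposite strand, which stood at 0.901 to 2.82 TPM.

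All 9 members were expressed in every library, and their order of level was stable. In TPM, which is per transcript length, the mean of the 12 group means was 1801 for Acadl, 1572 for Acadvl, 1115 for Etfb, 1001 for Hadhb, 917 for Acadm, 685 for Hadha, 420.1 for Cpt1b, 360.1 for Cpt2 and 7.85 for Cpt1a. Acadvl stood above Etfb, Acadm above Hadha, Hadha above Cpt1b, and Cpt2 above Cpt1a in 62 of 62 libraries. The closest neighbours were Etfb above Hadhb in 49 of 62 libraries and Hadhb above Acadm in 48 of 62, so those levels overlapped, while Acadl was above Acadvl and Cpt1b above Cpt2 in 56 of 62 each. Cpt1b, the muscle-type isoform of carnitine palmitoyltransferase 1, exceeded Cpt1a, the liver-type isoform, by a factor whose group means lay between 46.2 and 71.5. Together the 9 enzymes made up 1.71%, 1.78%, 1.59% and 1.53% of mt-free TPM in CAC libraries at 2, 4, 6 and 8 weeks, against 1.88%, 1.90%, 1.94% and 1.84% in NCAC libraries and 2.00%, 1.90%, 1.97% and 1.96% in Con libraries. The CAC and Con libraries did not overlap in that share at 2, 6 and 8 weeks and overlapped at 4 weeks. In deposited TPM the summed level of the 9 was 7509 in CAC and 7276 in Con libraries at 8 weeks, with overlap. At that time the order of these group means depended on whether the mt- genes were counted. At 2, 4 and 6 weeks the TPM sum was lower in CAC libraries as well. It was 7470, 7845 and 7570 in CAC against 8344, 9271 and 7638 in Con libraries, with overlap at 4 and 6 weeks.

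**Figure D1:**
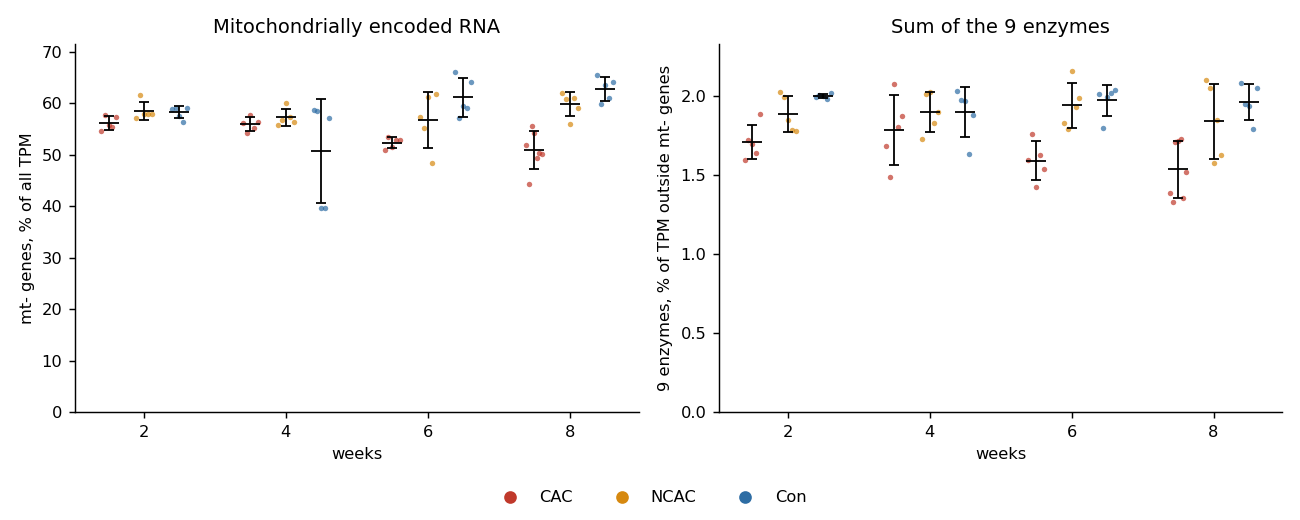
Left, percent of TPM taken by the 37 mt- genes; right, summed level of the 9 enzymes as percent of mt-free TPM, with CAC left of NCAC and Con at each week (points are libraries, bars the group mean ± SD). At 8 weeks the 9 enzymes summed to 1.53% in CAC, 1.84% in NCAC and 1.96% in Con libraries, while the mt- share was 50.8%, 59.8% and 62.8%.

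At 8 weeks, 5 of the 9 enzymes fell in CAC against Con libraries in mt-free TPM (limma over all genes, Benjamini-Hochberg adjusted p under 0.05): Hadhb, Hadha, Acadl, Acadvl and Acadm. The background in this comparison was 15.4% of all tested genes called lower and 10.1% called higher. All 9 log2 changes were negative, with a median of -0.25 against -0.05 over all genes. None rose in the limma test. Before adjustment p was under 0.05 for 7 members, all of them lower, beside 3187 of 14181 genes lower and 2045 higher. In deposited TPM the picture was different: Etfb and Cpt1b rose and none fell (before adjustment p was under 0.05 for 2 higher and 1 lower member), 6 of 9 changes were positive, and their median was 0.14 against 0.28 over all genes. In that unit 52.1% of all genes were called higher and 1.97% lower, and before adjustment 7163 of 12581 genes were higher and 308 lower. Another scaling, by the median of ratios of TPM, also gave 9 negative changes and called 4 members lower, those named here without Acadm, beside 12.9% of all genes called lower and 13.5% called higher.

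**Figure D2:**
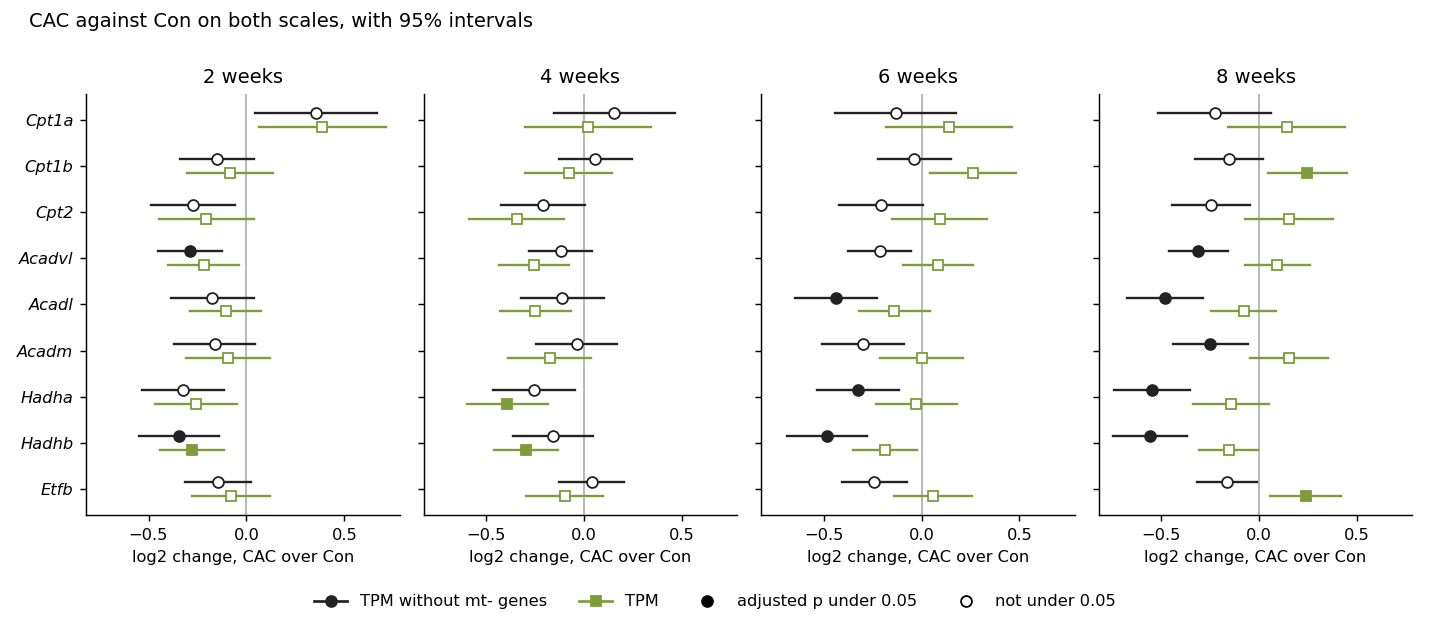
Log2 change with its 95% interval for each of the 9 enzymes in CAC against Con, 1 panel a week (circles, mt-free TPM; squares, deposited TPM; filled where adjusted p was under 0.05). At 8 weeks against Con the mt-free changes run between -0.56 for Hadhb and -0.15 for Cpt1b, whereas those in TPM lie on both sides of 0.

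Both subunits of the trifunctional protein were lower at 8 weeks. Hadhb had 1382, 1921 and 2257 mt-free TPM (lowest, median and highest of 7) in CAC libraries, against 2761, 2648, 1806, 2393 and 2152 in NCAC libraries and 2930.5, 2760.5, 2813, 2331 and 2659.7 in Con libraries. Every CAC library was below every Con library, while the NCAC range overlapped both. How many of all genes separated in this way was not counted, here or in any other comparison. Hadhb fell by 32.0% against Con, a log2 change of -0.56 (adjusted p = 1.14e-05, SE 0.09). Hadha had 967, 1228 and 1673 mt-free TPM (lowest, median and highest of 7) in CAC libraries, against 1781, 1738, 1265, 1598 and 1454 in NCAC libraries and 1981, 1846, 1890.5, 1529.9 and 1787 in Con libraries. The highest CAC library, replicate 5, lay above the lowest Con library, so these groups overlapped. Hadha fell by 31.4%, a log2 change of -0.54 (adjusted p = 2.45e-05, SE 0.10). In deposited TPM Hadhb had 769.9, 943 and 1075 (lowest, median and highest) in CAC libraries, against 1010.0, 1108, 1028, 909 and 952 in Con libraries, a log2 change of -0.16 (95% interval -0.31 to -0.0035, adjusted p = 0.077). Hadha had a log2 difference of -0.14 in that unit (adjusted p = 0.202), so for both subunits the sign was negative in either unit and the call was made only in mt-free TPM. The calls for both subunits were kept without any single library, and their ratio, Hadhb over Hadha, was 1.49 ± 0.108 in CAC (SD, n = 7) and 1.495 ± 0.0169 in Con libraries (SD, n = 5).

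Acyl-CoA dehydrogenases take the first step of each round. Acadl had 2847, 3236 and 4070.3 mt-free TPM (lowest, median and highest of 7) in CAC libraries at 8 weeks, against 5131, 4825, 3346, 4358 and 3871 in NCAC libraries and 4858, 4629.9, 4686, 4139 and 5219 in Con libraries. Acadvl had 2689.5, 3202 and 3378 mt-free TPM in CAC libraries, against 4203, 4047, 3176, 3524 and 3233 in NCAC libraries and 4076, 3896, 3702, 3462 and 3995 in Con libraries. For both genes all CAC libraries were below all Con libraries, a separation not counted over all genes, and the CAC and NCAC ranges overlapped. Acadl fell by 28.4% against Con (log2 change -0.48, adjusted p = 0.000165, SE 0.10) and Acadvl fell by 19.3% (log2 change -0.31, adjusted p = 0.00143, SE 0.07). Acadm, the medium-chain enzyme, had 1534, 1801 and 2449.8 mt-free TPM in CAC libraries, against 2587, 2615, 2114, 2126 and 1612 in NCAC libraries and 2329, 2214, 2111, 2230.4 and 2220.4 in Con libraries. CAC replicate 5 was above every Con library, and the change of -0.25 (adjusted p = 0.0477, SE 0.10) was lost without any one of 10 of the 12 libraries, all but CAC replicates 4 and 5, with adjusted p of 0.0562 to 0.128. In deposited TPM the changes of Acadl, Acadvl and Acadm were -0.08, 0.09 and 0.15, with adjusted p of 0.431, 0.353 and 0.186.

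The carnitine shuttle and Etfb, the β subunit of the electron transfer flavoprotein, had smaller differences. Cpt2 had 641, 738 and 960.3 mt-free TPM (lowest, median and highest of 7) in CAC libraries at 8 weeks, against 933, 961, 639.9, 827 and 792 in NCAC libraries and 970.5, 903, 862, 739 and 941 in Con libraries. Its groups overlapped, and its change of -0.25 against Con missed the threshold (95% interval -0.45 to -0.05, adjusted p = 0.0582). Etfb and Cpt1b depended on the unit for their direction. Etfb had 895, 1156 and 1216 TPM in CAC libraries, against 917, 951, 850.1, 966 and 926 TPM in Con libraries, and rose by 0.24 on the log2 scale (adjusted p = 0.0256, SE 0.09). In mt-free TPM Etfb had 1832, 2204 and 2721 in CAC libraries, against 2660.3, 2370.0, 2327, 2478 and 2586 in Con libraries, a change of -0.16 (95% interval -0.32 to -0.01, adjusted p = 0.111). Cpt1b had 329.6, 422 and 478 TPM in CAC libraries, against 342, 347, 338, 378 and 383 TPM in Con libraries, and rose by 0.25 (adjusted p = 0.0363, SE 0.10). In mt-free TPM its change was -0.15 (95% interval -0.33 to 0.02, adjusted p = 0.188). The groups overlapped for both genes in both units, and the TPM calls did not hold without single libraries: Etfb lost its call without CAC replicate 2, CAC replicate 3 or Con replicate 3, with adjusted p of up to 0.0717, and Cpt1b without CAC replicate 1, 2 or 5 or Con replicate 1, 2 or 3, with adjusted p of up to 0.0809. Cpt1a, at 14.2, 15.4 and 18.8 mt-free TPM in CAC libraries against 17.2, 16.5, 20.5, 16.7 and 23.0 in Con libraries, had a log2 difference of -0.23 (95% interval -0.51 to 0.06, adjusted p = 0.25), on a log2(TPM + 1) scale that understates changes of so low a gene.

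**Figure D3:**
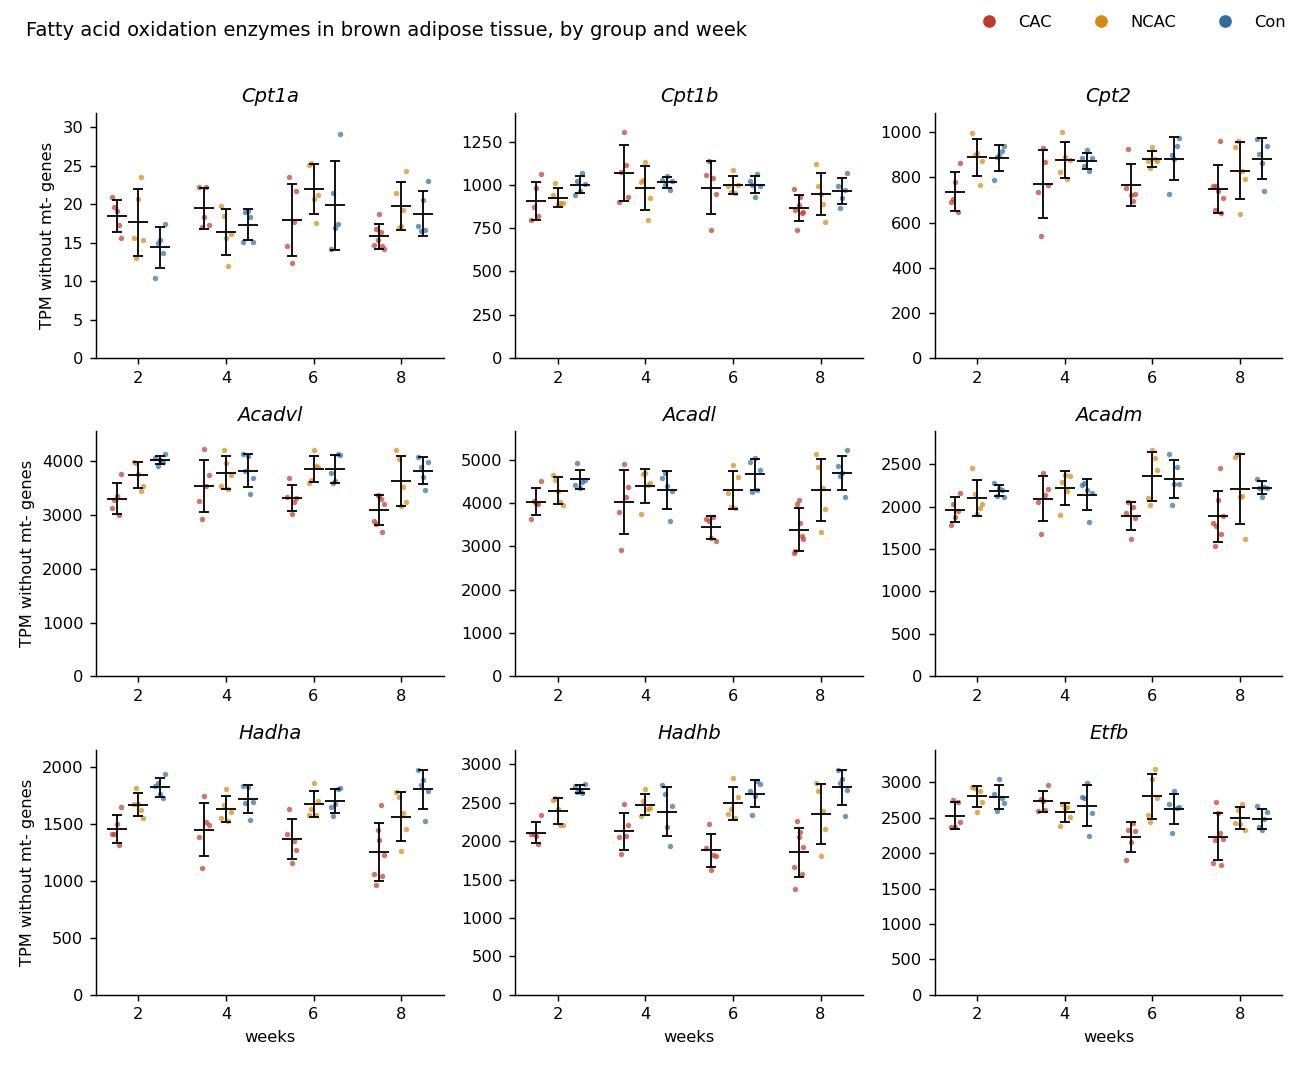
Mt-free TPM of each of the 9 enzymes in every library, by week, with CAC left of NCAC and Con (points are libraries, bars the group mean ± SD, each panel with its own axis from 0). In 6 of the 9 panels, those of Acadl, Acadvl, Hadhb, Acadm, Hadha and Cpt1b, the lowest of the 12 group means is CAC at 8 weeks.

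Against NCAC libraries at 8 weeks, a comparison that separates the cachectic from the non-cachectic melanoma, Hadhb, Acadl, Hadha and Acadvl fell in CAC libraries in mt-free TPM, 4 of 9 members beside 13.1% of all genes called lower and 10.3% called higher. The changes were -0.35 for Hadhb (95% interval -0.54 to -0.16, adjusted p = 0.00529), -0.34 for Acadl (adjusted p = 0.0078), -0.33 for Hadha (adjusted p = 0.00869) and -0.23 for Acadvl (adjusted p = 0.0205). Ranges overlapped for all 4, and NCAC replicates 3 and 5 lay within the CAC range in each of them. In deposited TPM no member was called in either direction by limma, with 0 at an unadjusted p under 0.05 and a smallest adjusted p of 0.191, while 37.3% of all genes were called higher and 1.98% lower. Before adjustment 5648 of 12581 genes were higher and 425 lower in that unit. The mt-free calls rested on the spread shared by all 12 groups: fitted on these 2 groups alone, 0 members were called, with adjusted p of 0.118 to 0.177 for the 4. The share of all genes called in that fit was not computed, so a loss of calls over all genes could not be seen. Without NCAC replicate 1 Acadl lost its call, and Acadvl lost it without CAC replicate 6, NCAC replicate 1 or NCAC replicate 2, at adjusted p of up to 0.105. This comparison and that with Con share the CAC libraries.

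At 6 weeks in mt-free TPM Hadhb, Acadl and Hadha fell in CAC against Con libraries, 3 of 9 members beside 6.21% of all genes called lower and 3.46% called higher, and all 9 changes were negative, with a median of -0.24 against -0.08 over all genes. Hadhb had 1914, 2222, 1628, 1823 and 1808 mt-free TPM in CAC libraries, against 2349, 2414, 2819.5, 2295 and 2576 in NCAC libraries and 2654, 2334, 2587, 2783 and 2743 in Con libraries. Acadl had 3641, 3592, 3198, 3675 and 3123 mt-free TPM in CAC libraries, against 4226, 3903, 4891, 3886 and 4597 in NCAC libraries and 4961, 4262, 5044, 4313 and 4764 in Con libraries. For both genes every CAC library was below every NCAC and every Con library, a separation not counted over all genes. Against Con, Hadhb changed by -0.48 (95% interval -0.69 to -0.28, adjusted p = 0.000875) and Acadl by -0.44 (95% interval -0.65 to -0.23, adjusted p = 0.0037), and both calls were kept without any single library. Hadha had 1417, 1636, 1162, 1349 and 1272 mt-free TPM in CAC libraries, against 1585, 1636, 1858, 1583 and 1708 in NCAC libraries and 1652, 1573, 1676, 1806 and 1818 in Con libraries. CAC replicate 2 lay within the Con range, and the change of -0.33 (adjusted p = 0.0365) was lost without any one of 7 of the 10 libraries, all but CAC replicate 2 and Con replicates 1 and 2, with adjusted p of up to 0.105, and by median of ratios (-0.24, adjusted p = 0.196). In deposited TPM limma called none of the 9 against Con, and before adjustment p was under 0.05 for Cpt1b, higher, and Hadhb, lower, while 20.7% of all genes were called higher and 0.978% lower. Before adjustment 4421 of 12581 genes were higher and 258 lower. The smallest adjusted p in that unit was 0.0759, for Cpt1b at 0.26 (95% interval 0.04 to 0.48). Markers shared by adipocytes or of white adipocytes summed to 55090 to 63490 mt-free TPM in CAC and 42760 to 50770 in Con libraries at this time, without overlap, with 1 of 7 called higher and 1 lower. Macrophage markers summed to 760.9 to 894.7 in CAC and 356.6 to 1096 in Con libraries, with 5 of 10 called higher, and brown adipocyte markers to 24020 to 32690 in CAC and 24800 to 34030 in Con libraries, with overlap. The part of these markers in the enzymes' differences was not tested.

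Against NCAC at 6 weeks, 5 of 9 members fell in CAC libraries in mt-free TPM, beside 7.92% of all genes called lower and 4.22% called higher. Hadhb changed by -0.41 (adjusted p = 0.00484), Etfb by -0.33 (adjusted p = 0.0058), Acadl by -0.32 (adjusted p = 0.0379), Acadm by -0.31 (adjusted p = 0.0371) and Hadha by -0.30 (adjusted p = 0.0497). Etfb had 1899.6, 2335, 2152, 2431 and 2318 mt-free TPM in CAC libraries, against 2542, 2442, 3056, 3196 and 2777 in NCAC libraries, so every CAC library was below every NCAC library. This separation was not counted over all genes. The calls for Hadhb and Etfb were kept without any single library, whereas Acadl lost it without CAC replicate 1, 3 or 5 or NCAC replicate 1, 3 or 5 (adjusted p of up to 0.112) and Acadm without CAC replicate 1, 3 or 5 or NCAC replicate 3, 4 or 5 (up to 0.109). Hadha lost it without any library but CAC replicate 2 and NCAC replicate 4 (adjusted p of up to 0.138). A fit of these 2 groups alone called 1 member, without a share of all genes computed for it. The median-of-ratios scaling also called 1, Hadhb at -0.34 (adjusted p = 0.0382), beside 4.54% of all genes called lower and 5.80% called higher. Macrophage markers summed to 760.9 to 894.7 mt-free TPM in CAC and 359.1 to 841.3 in NCAC libraries, with 5 of 10 called higher, and their part was not tested. In deposited TPM Hadhb was the member called lower, beside 1.95% of all genes called lower and 5.82% called higher, with 940.5, 1032, 789.8, 859 and 851 TPM in CAC libraries, against 1002, 1084, 1096, 1185 and 983 TPM in NCAC libraries. Its ranges overlapped, and its change was -0.26 (95% interval -0.43 to -0.10, adjusted p = 0.0356), a call lost without CAC replicate 3, 4 or 5 or NCAC replicate 2, 3 or 4 (adjusted p of up to 0.113).

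At 2 weeks Hadhb and Acadvl fell in CAC against Con libraries in mt-free TPM, 2 of 9 members beside 0.331% of all genes called lower and 4.97% called higher. Hadhb was also called lower in deposited TPM, beside 0.0477% of all genes called lower and 4.58% called higher. Hadhb had 2096, 2091, 2069, 1958 and 2346 mt-free TPM in CAC libraries, against 2724, 2639, 2667, 2624 and 2748 in Con libraries, a change of -0.35 (95% interval -0.55 to -0.14, adjusted p = 0.0337). Acadvl had 3133, 3283, 3353, 2996 and 3762 mt-free TPM in CAC libraries, against 4055, 3912, 4030.1, 3982 and 4129 in Con libraries, a change of -0.29 (95% interval -0.45 to -0.12, adjusted p = 0.026). In both genes all CAC libraries were below all Con libraries, a separation not counted over all genes. In deposited TPM Hadhb had 951, 884, 916, 872 and 1001 in CAC libraries, against 1122, 1081, 1132, 1143 and 1123 in Con libraries, a change of -0.28 (adjusted p = 0.0352). Cpt1a was the member with a positive change, with 9.5, 8.27, 8.49, 7.71 and 6.67 TPM in CAC libraries, against 4.29, 6.13, 6.54, 5.94 and 7.15 TPM in Con libraries. Its change of 0.39 missed the threshold (95% interval 0.07 to 0.71, adjusted p = 0.175). The calls were near the threshold: Hadhb lost its call in mt-free TPM without any library but CAC replicate 5 (adjusted p of up to 0.097) and in TPM without any but CAC replicate 5 and Con replicate 2 (up to 0.106). Acadvl lost it without CAC replicate 1, 2 or 4 or Con replicate 1, 3 or 5 (adjusted p of up to 0.101). Of the skeletal muscle markers, 16 of 17 were called higher in CAC libraries at this time, with summed levels of 3825 to 39050 mt-free TPM in CAC and 341.2 to 6745 in Con libraries, and 8 of 10 macrophage markers were called higher. The part of either in these differences was not tested.

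At 4 weeks the result depended on the unit and on single libraries, among them Con replicates 3 and 4. In deposited TPM Hadha and Hadhb fell in CAC against Con libraries, 2 of 9 members beside 3.03% of all genes called lower and 0.819% called higher. Hadha had 609, 509, 739, 683 and 651 TPM in CAC libraries, against 758, 702, 1104, 927 and 729 TPM in Con libraries, a change of -0.39 (adjusted p = 0.0219). Hadhb had 898, 843, 1052, 928 and 963 TPM in CAC libraries, against 1128, 1083, 1322, 1170.5 and 1053 TPM in Con libraries, a change of -0.30 (adjusted p = 0.0283). All CAC libraries lay below all Con libraries for Hadhb, and the ranges overlapped for Hadha. The separation for Hadhb was not counted over all genes. Con replicates 3 and 4, with the low mt- share, held the 2 highest Con values of each gene. Without both, the log2 difference was -0.20 for Hadha (adjusted p = 0.403) and -0.22 for Hadhb (adjusted p = 0.301). Over 10 alternatives adjusted p lay between 0.0179 and 0.572 for Hadha and between 0.0227 and 0.572 for Hadhb, highest in the fit of these groups alone, which called 0 members. For that fit the share of all genes called was not computed. Hadha also lost its call without CAC replicate 2, Con replicate 3 or Con replicate 4 alone, and Hadhb without CAC replicate 1, 2 or 4 or either of those Con libraries, with adjusted p of up to 0.155 for Hadha and 0.144 for Hadhb. In mt-free TPM, which uses all libraries, limma called 0 members in either direction, and before adjustment p was under 0.05 for Hadha alone, beside 1.41% of all genes called lower and 3.92% called higher. Before adjustment 912 of 14181 genes were lower and 2034 higher in that unit. There the log2 difference was -0.25 for Hadha (95% interval -0.46 to -0.05, adjusted p = 0.14) and -0.16 for Hadhb (95% interval -0.36 to 0.04, adjusted p = 0.379). Without Con replicates 3 and 4 these mt-free differences were larger, -0.28 for Hadha (adjusted p = 0.329) and -0.29 for Hadhb (adjusted p = 0.255), and 0 members were called. One sample number is shared by the titles of a CAC and a Con library of this week.

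Against NCAC at 2 and 4 weeks no member was called by limma in either unit. At an unadjusted p under 0.05 there were 0 lower in TPM and 2 lower in mt-free TPM at 2 weeks, and 1 lower in each unit at 4 weeks, with 0 higher throughout. Of all genes, 67 of 12581 in TPM and 301 of 14181 in mt-free TPM were lower at that level at 2 weeks, and 226 and 673 at 4 weeks. Those higher were 1566 and 987 at 2 weeks and 1134 and 1136 at 4 weeks. Of all genes, 0.0397% in TPM and 0.0282% in mt-free TPM were called higher at 2 weeks and none lower, and at 4 weeks 0.588% in TPM were called higher and none lower, with 0.811% higher and 0.0987% lower in mt-free TPM. The smallest adjusted p in mt-free TPM was 0.465 at 2 weeks, for Cpt2 at -0.27 (95% interval -0.49 to -0.06), and 0.337 at 4 weeks, for Hadhb at -0.22 (95% interval -0.43 to -0.02).

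NCAC and Con libraries were not told apart in any of the 9 enzymes. Limma called 0 members at each of the 4 times in either unit, beside 0% of all genes called in either direction at 2, 6 and 8 weeks. At 4 weeks 0.00795% of all genes were called lower in TPM, and 0.00705% higher and 0.00705% lower in mt-free TPM. The mt-free changes ranged between -0.17 and 0.27 at 2 weeks, -0.09 and 0.06 at 4 weeks, -0.12 and 0.17 at 6 weeks, and -0.21 and 0.07 at 8 weeks. At an unadjusted p under 0.05 there were 2 lower at 8 weeks in mt-free TPM, Hadha at -0.21 (95% interval -0.42 to -0.0018) and Hadhb at -0.21 (95% interval -0.41 to -0.0061). In TPM there were 1 lower at 2 weeks, 4 lower at 4 weeks and 1 higher at 6 weeks. Of all 12581 genes in TPM, 420 were lower at 2 weeks, 2100 lower at 4 weeks and 1048 higher at 6 weeks at that level. In mt-free TPM 279 of 14181 genes were lower at 8 weeks. A missed threshold does not show that these groups were alike.

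Whether the CAC difference from Con changed over time was tested as the difference at 8 weeks minus that at 2 weeks. No member passed limma's threshold in either unit, beside 10.2% of all genes called higher and 1.42% lower in TPM and 2.05% called higher and 6.35% lower in mt-free TPM. In mt-free TPM 2 were lower at an unadjusted p under 0.05, Cpt1a at -0.58 (95% interval -1.005 to -0.161, adjusted p = 0.0713) and Acadl at -0.31 (95% interval -0.59 to -0.02, adjusted p = 0.17). Over all genes 2621 of 14181 were lower at that level in mt-free TPM, and 3357 of 12581 were higher in TPM. In TPM 4 members were higher at that level, with a smallest adjusted p of 0.0776 for Acadvl at 0.31 (95% interval 0.07 to 0.55). In mt-free TPM that value for Acadvl was -0.02 (95% interval -0.24 to 0.20, adjusted p = 0.928).

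Genes that work beside the 9 enzymes are described for CAC against Con at 8 weeks, from 10 lists with 86 genes, in mt-free TPM unless stated. Of 4 other carnitine shuttle genes, 2 fell in CAC against Con libraries and none rose, with a median of -0.15. Over all genes 15.4% were called lower and 10.1% higher. Slc25a20, the inner-membrane carnitine carrier that sits between both transferases, had 685 ± 58.7 mt-free TPM in CAC libraries (SD, n = 7) and 936 ± 118 in Con libraries (SD, n = 5), a change of -0.45 (adjusted p = 0.000496), and Crat, carnitine acetyltransferase, changed by -0.21 (adjusted p = 0.0449). Slc22a5, which takes carnitine up into the cell, had a log2 difference of -0.10 (adjusted p = 0.709). Of 4 acyl-CoA synthetases tested, which activate fatty acids, Acsl3 fell by 0.56 on the log2 scale (adjusted p = 0.00471), and Acsl1, at -0.29, missed the threshold (adjusted p = 0.0644). In deposited TPM the change of Slc25a20 was -0.04 (adjusted p = 0.738).

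Of 13 other enzymes of mitochondrial β-oxidation, 7 fell and 1 rose, with a median of -0.27, beside 15.4% of all genes called lower and 10.1% called higher. Eci1, which repositions double bonds, had 843 ± 159 mt-free TPM in CAC libraries (SD, n = 7) and 1354 ± 84.3 in Con libraries (SD, n = 5), a change of -0.70 (adjusted p = 2.45e-07). Hadh, the short-chain 3-hydroxyacyl-CoA dehydrogenase, had 535 ± 122 mt-free TPM in CAC and 808 ± 40.9 in Con libraries, a change of -0.63 (adjusted p = 2.89e-05). Both also fell in deposited TPM, Eci1 by 0.30 (adjusted p = 0.012) and Hadh by 0.22 (adjusted p = 0.0479) on the log2 scale. Acaa2, a mitochondrial thiolase of the last step, changed by -0.44 (adjusted p = 0.000782), Echs1, the short-chain hydratase, by -0.36 (adjusted p = 0.00109) and Acads, the short-chain dehydrogenase, by -0.27 (adjusted p = 0.0146). The member of this list that rose was Hsd17b10, a dehydrogenase that also belongs to mitochondrial RNase P, with 681 ± 269 mt-free TPM in CAC and 324 ± 20.1 in Con libraries. It rose by 0.98 in mt-free TPM (adjusted p = 6.09e-06) and by 1.37 in TPM (adjusted p = 3.79e-08). The partners of Etfb also fell in mt-free TPM, Etfdh, which passes electrons on to ubiquinone, by 0.39 (adjusted p = 0.00188) and Etfa, the α subunit, by 0.24 (adjusted p = 0.0293).

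Peroxisomal β-oxidation, which shortens very long chains, had 1 of 12 genes higher and 2 lower in mt-free TPM and a median of -0.13, near the shares of all genes called (10.1% higher and 15.4% lower). Abcd3, a peroxisomal acyl-CoA transporter, fell by 0.84 (adjusted p = 1.95e-05) and Hsd17b4, the D-bifunctional protein, by 0.22 (adjusted p = 0.0481). Of 5 genes that set malonyl-CoA, the inhibitor of carnitine palmitoyltransferase 1, Mlycd, malonyl-CoA decarboxylase, changed by -0.45 (adjusted p = 0.00836) and Prkaa1, a catalytic subunit of AMP-activated kinase, by -0.54 (adjusted p = 0.00162). Of 9 transcriptional regulators, 2 rose and 2 fell. Ppara, the receptor that controls many oxidation genes in liver, had 59.0 ± 21.7 mt-free TPM in CAC and 133 ± 37.4 in Con libraries, a change of -1.19 in mt-free TPM (adjusted p = 0.00503) and of -0.78 in TPM (adjusted p = 0.0251). Ppard, a related receptor, rose by 0.52 (adjusted p = 0.00903) and Rxra, the partner of both, by 0.34 (adjusted p = 0.0134). Esrra, estrogen-related receptor α, fell by 0.29 (adjusted p = 0.0191). Pparg at -0.15 (adjusted p = 0.259) and Ppargc1a at -0.32 (adjusted p = 0.657) missed the threshold in mt-free TPM.

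Of 11 PPAR target genes outside β-oxidation, 4 fell and none rose in mt-free TPM, beside 15.4% of all genes lower and 10.1% higher. In deposited TPM 4 were higher and none lower, beside 52.1% of all genes higher. Pdk4, a kinase that restrains pyruvate oxidation, changed by -0.85 (adjusted p = 0.0312), Fabp3, a fatty acid carrier of muscle and brown fat, by -0.83 (adjusted p = 0.0175), Ucp3 by -0.66 (adjusted p = 0.0073) and Acot2, a mitochondrial thioesterase, by -0.66 (adjusted p = 4.48e-05). Of 13 tricarboxylic acid cycle genes 10 fell, led by the succinyl-CoA synthetase subunits Suclg1 at -0.79 (adjusted p = 1.88e-08) and Sucla2 at -0.63 (adjusted p = 1.95e-06). Of 12 nuclear respiratory chain genes 11 fell, with the largest change in the cytochrome oxidase subunit Cox7a1 at -0.55 (adjusted p = 0.000164). In deposited TPM the counts were 3 higher and 2 lower for the cycle and 3 higher and none lower for the respiratory chain, beside the 52.1% higher and 1.97% lower over all genes in that unit. The medians of all 10 pathway lists were below that of all genes in both units, between -0.36 and -0.13 against -0.05 in mt-free TPM and between 0.04 and 0.26 against 0.28 in TPM. Against NCAC at 8 weeks, 9 of 13 cycle genes and 9 of 12 respiratory chain genes fell in CAC libraries in mt-free TPM. There 13.1% of all genes were called lower and 10.3% higher. Between NCAC and Con limma called 0 genes of these lists, beside 0% of all genes at 8 weeks.

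**Figure D4:**
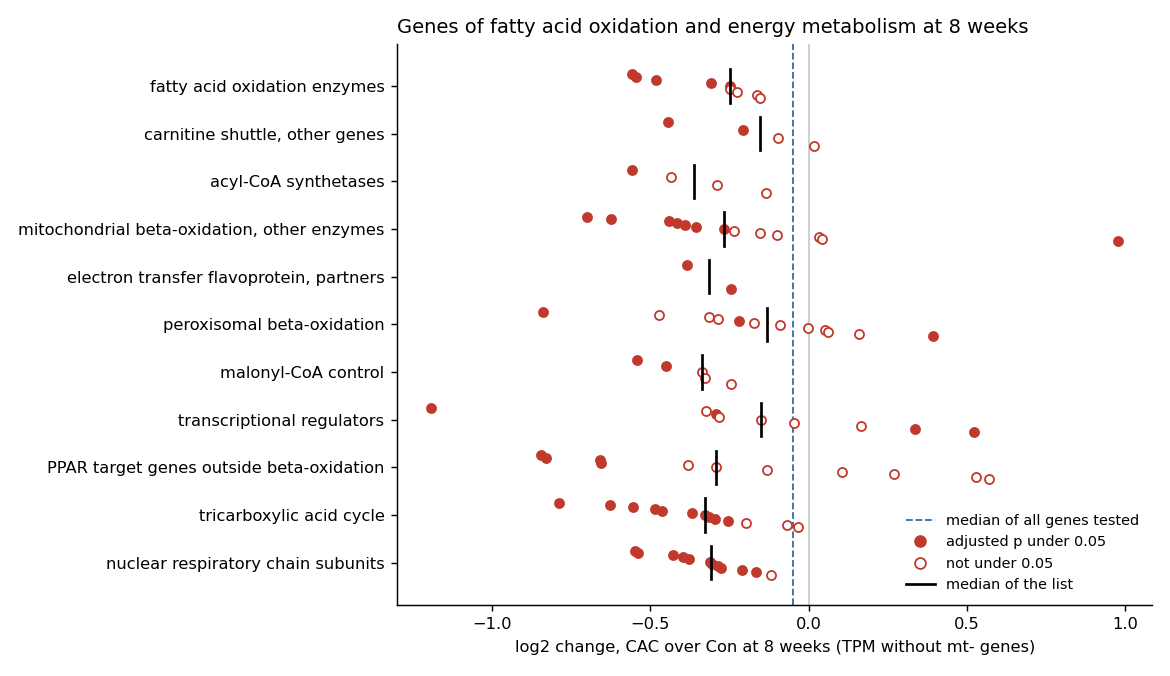
Log2 change in CAC against Con at 8 weeks of each gene in the 9 enzymes and the other pathway lists, in mt-free TPM (filled points passed the adjusted p threshold of 0.05, black bars are list medians and the dashed line the median of all genes tested). The 10 other lists have medians of -0.36 to -0.13 in mt-free TPM, against -0.05 over all genes.

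Markers of several cell types were also compared at 8 weeks, and some of them differed between the groups. Brown adipocyte markers summed to 15810 to 20780 mt-free TPM in CAC libraries at 8 weeks, 23640 to 41670 in NCAC libraries and 25300 to 30460 in Con libraries, and 4 of 10 fell and none rose against Con. Over all genes 15.4% were called lower and 10.1% higher in that comparison, to which all marker counts here belong. Ucp1 had 6159.7 ± 2257 mt-free TPM in CAC (SD, n = 7), 15534 ± 6618 in NCAC and 13624 ± 1336 in Con libraries (SD, n = 5 each), a change of -1.23 against Con in mt-free TPM (adjusted p = 8.0e-05) and of -0.82 in TPM (adjusted p = 0.00571). Macrophage markers summed to 579.7 to 1150 mt-free TPM in CAC, 283.8 to 476.3 in NCAC and 338.7 to 490 in Con libraries, and 8 of 10 were called higher. Markers shared by adipocytes or of white adipocytes summed to 42740 to 67640 in CAC and 37950 to 45100 in Con libraries, with 3 of 7 higher and 1 lower. Skeletal muscle markers, which matter for Cpt1b because muscle expresses it, summed to 1652 to 8834 in CAC and 2710 to 24110 in Con libraries, and limma called 0 of 17. Markers of gland and surface epithelium summed to 2.35 to 86.6 in CAC and 50.1 to 346.1 in Con libraries, with 6 of 9 lower, and several of them were at 0 in 1 to 7 of all libraries. Of 5 endothelial markers 1 was higher and 1 lower. The part of these cell types in the enzymes' differences was not tested.

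Likeness was measured across the 62 libraries. The genes outside the 9 whose log2 mt-free levels were most like the mean of the 9 were Pisd (Pearson r 0.91), Etfdh (0.909), Acat1 (0.907), Dlst (0.903) and Decr1 (0.90), of which Decr1 is an auxiliary β-oxidation enzyme and Dlst a subunit of the oxoglutarate dehydrogenase complex. For single members, the gene outside the 9 most like Cpt1a was Sirpa (0.649) and that most like Cpt1b was Dot1l (0.711). A mean of several genes correlates more highly than a single gene, so these values are not comparable with those for the mean. These values describe libraries that share their groups and their mt- share, and the coefficient of variation over the 12 group means lay between 5.51% for Cpt1b and 12.3% for Hadhb.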

How the data were processed

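RNA of brown adipose tissue was taken up in Trizol and sequenced on a NovaSeq from TruSeq stranded mRNA libraries, per the labels' protocols. The authors deposited one table of TPM per gene and library, on mm10 per the submitters' processing notes. The aligner, counter and annotation are not given in the sources used here. Since TPM keeps no depth, no count test, interval or detection limit from depth was possible.

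TPM were used as deposited, rescaled to the same total without the 37 mt- genes, or divided by median-of-ratios factors. On each scale log2(value + 1) was fitted with limma 3.58.1 (R 4.3.3), one mean per group over all 62 libraries, for genes at 1 or more in at least 5 libraries: 12581 in TPM and 14181 in mt-free TPM. The trend over intensity was used in limma's moderated test, and p-values were Benjamini-Hochberg adjusted within a comparison over all genes. The pseudocount makes changes of low genes, here Cpt1a, too small. The fit was tested on simulated data with independent noise and a set of genes changed in CAC at 8 weeks. Those data held no unequal mt- share, so that test does not bear on the choice of scaling. Figures were drawn with matplotlib 3.10.9. The 9 members and all gene lists were chosen with earlier results of these data known. Outside the members, the text names fixed genes of each list plus at most the 2 highest and 2 lowest called at 8 weeks, and the genes with the highest Pearson r. No pairing by replicate number was seen: same-numbered libraries had a median r of -0.0187 over 330 pairs, against -0.00311 for others. Single same-numbered pairs ranged between -0.574 and 0.528, so a weak pairing could be missed. No 2 libraries were identical. Alternatives were other scalings, a pseudocount of 0.1, no filter or one of 5 TPM, the groups compared alone, a replicate block, and leaving out single libraries or Con replicates 3 and 4 of 4 weeks. A few genes of the pathway lists are not reported here by name.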

Additional observations from a re-analysis of the deposited data

Results flagged for a closer look

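In 216 sets of 5 or 7 libraries (a member, a group and a unit), 12 had a highest or lowest library that stood far from the others for its group's range. Chance marks about 1 in 20 sets. CAC replicate 5 at 8 weeks was the library in 4 of the 12 sets: in TPM for Acadm at 1241 against 789 to 951 in the others, for Cpt2 at 486 against 318 to 366 and for Hadha at 847 against 509.6 to 645, and in mt-free TPM for Cpt2 at 960.3 against 641 to 764. At 6 weeks NCAC replicate 4 was highest in TPM for Acadvl at 2023 against 1489 to 1643 and for Etfb at 1649.6 against 1060.0 to 1188. At 2 weeks NCAC replicate 1 was highest in TPM for Acadm at 1049 against 804 to 853, and Con replicate 5 for Hadha at 792 against 748 to 761. CAC replicate 2 at 6 weeks was highest in mt-free TPM for Cpt2 at 928 against 694 to 754. The lowest libraries were Con replicate 1 at 6 weeks for Cpt2 at 246 TPM against 349.6 to 386, NCAC replicate 1 at 4 weeks for Acadl at 3739.6 mt-free TPM against 4427 to 4699.8, and Con replicate 4 at 4 weeks for Acadm at 1822 mt-free TPM against 2156 to 2282.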

How the results depend on the processing

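Scaling changed most. Where deposited TPM gave 1, 2, 0 and 0 members lower in CAC against Con at 2, 4, 6 and 8 weeks and 2 higher at 8 weeks, mt-free TPM gave 2, 0, 3 and 5 lower and 0 higher, and median-of-ratios values 3, 0, 2 and 4 lower and 0 higher. Against NCAC, mt-free TPM gave 5 lower at 6 weeks and 4 at 8 weeks, where TPM gave 1 and 0, and median-of-ratios values gave 1 and 3. Leaving out Con replicates 3 and 4 of 4 weeks with the mt- genes gave 2, 0, 4 and 5 lower and 0 higher against Con, and 4 and 4 lower against NCAC. At 8 weeks 6 positive TPM changes against Con turned negative: in mt-free TPM, with or without those libraries, Cpt1a -0.23, Cpt1b -0.15, Cpt2 -0.25, Acadm -0.25, Acadvl -0.31 and Etfb -0.16, and by median of ratios -0.17, -0.11, -0.20, -0.20, -0.26 and -0.12. Acadvl against NCAC turned to -0.23 and -0.20 under these scalings. Other scalings remove the mt- share, or the bulk shift of all genes, by construction.

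With the replicate block, TPM gave 1 higher at 8 weeks against Con. In mt-free TPM the block gave 2, 0, 4 and 4 lower and 0 higher against Con, 4 at 6 weeks and 2 at 8 weeks against NCAC, and log2 changes at 8 weeks of -0.18 for Cpt1a, -0.14 for Cpt1b, -0.19 for Cpt2, -0.22 for Acadm, -0.28 for Acadvl and -0.11 for Etfb, with Acadvl at -0.20 against NCAC; 9 of 62 libraries correlated best with their own number.

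Fits of only the groups compared gave, in TPM, 3 and 0 lower at 2 and 4 weeks and 0 higher at 8 weeks against Con, 0 lower at 6 weeks against NCAC, and 1 higher for the change over time; in mt-free TPM they gave 1 and 0 lower at 6 and 8 weeks against NCAC and 1 lower for the change over time. No filter gave 1 higher at 8 weeks in TPM and 2 lower at 6 weeks against NCAC in mt-free TPM, and a filter of 5 TPM gave 5 lower at 6 weeks against Con in mt-free TPM. Without Con replicates 3 and 4 of 4 weeks, TPM gave 0 lower at 4 weeks, 1 higher at 6 weeks and 1 higher for the change over time. Where no value shows it, the cause was not tested.

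Leaving out single libraries gave, against Con in TPM, 0 to 1 lower at 2 weeks, 0 to 4 at 4 weeks, 0 to 1 at 6 weeks and 0 to 2 at 8 weeks, with 0 to 1 higher at 6 weeks and 0 to 2 at 8 weeks, and 0 to 1 higher for the change over time. In mt-free TPM it gave 0 to 3, 2 to 5 and 4 to 6 lower at 2, 6 and 8 weeks. Against NCAC it gave 0 to 1 lower in TPM at 6 weeks, and 2 to 6 and 2 to 5 lower in mt-free TPM at 6 and 8 weeks. Hadha at 6 weeks against Con in TPM (-0.03) lay between -0.085 and 0.0235. Over all other alternatives 285 of the log2 changes kept direction and side of the threshold, 49 passed it anew, 38 lost it and 28 reversed. In none of the refits by replicate block, filter, groups compared or libraries left out was the share of all genes called computed. Moves in the member counts of those refits could therefore not be told from moves over all genes. Depth is unknown, so its limit on these values cannot be given.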
